A study of Homo sapiens with 28 samples.

Results

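Collagen hydroxylases and lysyl oxidases are described here through 6 genes, P4HA1, P4HA2, PLOD1, PLOD2, LOX and LOXL2, out of 19821 protein-coding genes on chromosomes 1 to 22 and X. The genes were chosen by symbol, and a peak was assigned to a gene when it overlapped the annotated gene span extended by 5 kb on each side, by at least 1 bp. All 6 symbols were found. The peaks come from chromatin immunoprecipitation followed by sequencing (ChIP-seq) in T47D cells, a long-established line of luminal breast cancer. Antibodies to ZHX2, a zinc finger and homeobox protein, to CTCF, a DNA-binding protein of chromatin loop anchors, and to H3K27ac, an acetylation mark of active promoters and enhancers, were each used in normoxia and in hypoxia. An antibody to Flag was used in hypoxia alone, in T47D cells with Flag-tagged ZHX2 in the wild-type form (WT) or in a mutant form labelled PA. These are 8 groups of 2 samples, and another 12 samples had no antibody. The labels describe lentiviral infection with drug selection but do not say which cells it applies to, whether the Flag cells still made their own ZHX2, what PA stands for, or the oxygen level and length of hypoxia. Each group had 1 deposited peak list and no value per sample, and the depth of sequencing behind the lists is unknown, so no difference between conditions had a replicate check and none was tested.

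Collagen chains are modified before and after they leave the cell. In the endoplasmic reticulum, prolyl 4-hydroxylase acts on prolines that stabilise the triple helix, and lysyl hydroxylases act on lysines that later enter cross-links. Outside the cell, lysyl oxidases convert lysines to reactive aldehydes, from which cross-links between collagen fibres form. The hydroxylases need molecular oxygen and 2-oxoglutarate, and genes of these families are textbook targets of the hypoxia-inducible factors (HIF), with roles in matrix stiffening and spread of breast tumours.

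H3K27ac peaks at marker genes of cell types were counted under the same window. All 7 luminal markers (ESR1, GATA3, FOXA1, KRT8, KRT18, KRT19 and PGR) held an H3K27ac peak in both conditions, and of 5 stromal markers (FAP, PDGFRB, THY1, DCN and LUM) 0 did. Of 4 basal or myoepithelial markers 3 did in both conditions, with KRT5 the exception, and of 4 immune markers 3 did in normoxia and 4 in hypoxia, so the mark is not specific to luminal genes. Among all protein-coding genes 75.1% held an H3K27ac peak in normoxia and 76.2% in hypoxia. The counts at luminal, basal and immune markers therefore do not identify the line. The luminal markers are those of the labelled line, and the fibroblast genes that would accompany stromal cells were without the mark.

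ZHX2 peaks lay at all 6 genes in hypoxia and at 1 of them in normoxia. The hypoxia list had 11 peaks at these genes, 3 at P4HA1, 2 each at PLOD1, LOX and LOXL2, and 1 each at P4HA2 and PLOD2. The normoxia list had a single peak, in the flank of PLOD1, and it lay on the start of the next gene, MFN2, which encodes a mitochondrial fusion protein. Among all protein-coding genes 68.9% held a hypoxia ZHX2 peak and 42.5% a normoxia ZHX2 peak under the same window, so most genes share the presence of a hypoxia peak. P4HA1, P4HA2, PLOD2, LOX and LOXL2 belong to the 28.7% of genes with a ZHX2 peak in the hypoxia list and none in the normoxia list. The median was 2 hypoxia ZHX2 peaks per gene for the 6 genes and 1 over all genes. The hypoxia ZHX2 list is longer, with 32343 peaks against 14586. Cut to 14586 peaks by the authors' score, it kept 6 peaks at 5 of the genes and none at LOXL2. Of these 6 peaks 5 overlapped no normoxia ZHX2 peak, beside 54.4% of the shortened list. The share of all protein-coding genes with a peak in the shortened list was not computed, so this count does not set the genes apart.

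Of the 11 hypoxia ZHX2 peaks 10 overlapped no normoxia ZHX2 peak, beside 72.6% of the whole hypoxia list. The exception was the peak at MFN2. For P4HA1, PLOD2 and LOX the nearest normoxia ZHX2 peak to the start site was 221, 308 and 305 kb away, and for P4HA2 and PLOD1 it was 30.5 and 7.03 kb away. The authors' fold enrichment over background at the 11 peaks ran from 2.35 to 7.74 with a median of 3.93, beside a median of 3.33 over the whole list. The share of the list with a lower fold ran from 7.31% at the weaker LOX peak to 97.1% at the MFN2 peak, so the peaks were spread over the strengths of their own list.

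**Figure D1:**
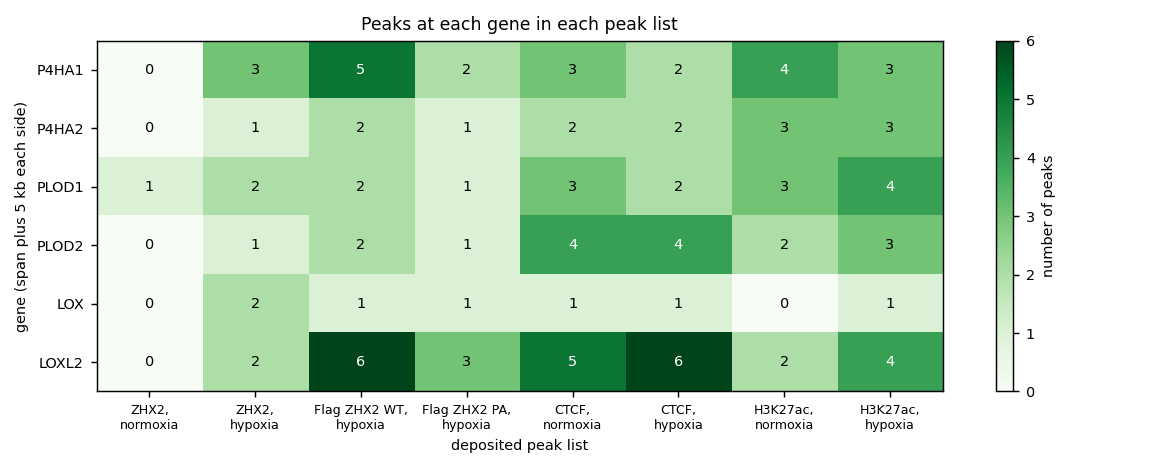
Number of peaks in each of the 8 deposited lists (columns) at each of the 6 genes (rows, gene span plus 5 kb on each side); darker green is more peaks and the number is printed in each cell. The normoxia ZHX2 column holds 1 peak, at PLOD1, and the hypoxia ZHX2 column holds 11.

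Because the genes differ in length, the counts were also set per length of window. The windows ran from 25.1 kb at LOX to 117 kb at LOXL2. LOX had 0.798 hypoxia ZHX2 peaks per 10 kb of window, more than 83.6% of protein-coding genes. PLOD1 had 0.394 and P4HA1 0.301 per 10 kb, while PLOD2 had 0.0983, fewer than the median of 0.197 over all genes. PLOD2 and LOXL2, with 0.171, were below the median. The value of LOX rests on 2 peaks, and 1 of them remained at a −log10 q of at least 5 or in the upper 50% of the list by score. Both PLOD1 peaks remained under either filter, so the gap between LOX and PLOD1 rests largely on the weaker LOX peak. Of the 2 PLOD1 peaks 1 lies at MFN2.

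Start sites were taken from RefSeq promoter windows of GRCh38.p14, which hold 250 bases before and 50 bases from the start site and matched 5 of the 6 genes. A hypoxia ZHX2 peak overlapped the window of P4HA1, PLOD1, PLOD2 and LOX, and a normoxia ZHX2 peak overlapped none of the windows. The share of all promoter windows that a ZHX2 peak overlaps was not computed, so these counts do not set the genes apart. Shares for the stricter measure, a peak over the start site itself, are given below. These 4 sequences are shown because they are the promoters at which ZHX2 was listed in hypoxia alone. Each is printed 5′ to 3′ in the direction of transcription, with the core of the hypoxia response element, ACGTG or GCGTG on either strand, in capitals. The windows are chr10:73096817-73097116 on the minus strand for P4HA1, chr1:11934467-11934766 on the plus strand for PLOD1, chr3:146161135-146161434 on the minus strand for PLOD2 and, at the first of 3 listed start sites, chr5:122078210-122078509 on the minus strand for LOX.
P4HA1: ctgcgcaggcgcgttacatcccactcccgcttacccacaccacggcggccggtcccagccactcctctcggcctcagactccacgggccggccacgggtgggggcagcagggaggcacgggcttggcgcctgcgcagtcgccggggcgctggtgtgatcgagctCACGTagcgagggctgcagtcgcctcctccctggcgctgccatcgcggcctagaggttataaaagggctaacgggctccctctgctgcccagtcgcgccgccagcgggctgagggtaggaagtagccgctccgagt
PLOD1: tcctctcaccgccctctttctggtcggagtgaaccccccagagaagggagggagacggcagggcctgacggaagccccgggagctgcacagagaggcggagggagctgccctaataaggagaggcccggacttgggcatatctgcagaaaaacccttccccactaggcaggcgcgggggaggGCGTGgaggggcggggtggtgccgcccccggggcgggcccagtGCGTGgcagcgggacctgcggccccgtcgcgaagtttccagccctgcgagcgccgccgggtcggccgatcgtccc
PLOD2: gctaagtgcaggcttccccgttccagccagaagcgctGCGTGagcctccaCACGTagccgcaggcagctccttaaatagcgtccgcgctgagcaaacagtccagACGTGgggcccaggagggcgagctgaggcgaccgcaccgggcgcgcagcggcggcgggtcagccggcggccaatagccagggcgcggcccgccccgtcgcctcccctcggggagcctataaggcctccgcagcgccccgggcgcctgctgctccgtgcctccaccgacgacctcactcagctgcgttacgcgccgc
LOX: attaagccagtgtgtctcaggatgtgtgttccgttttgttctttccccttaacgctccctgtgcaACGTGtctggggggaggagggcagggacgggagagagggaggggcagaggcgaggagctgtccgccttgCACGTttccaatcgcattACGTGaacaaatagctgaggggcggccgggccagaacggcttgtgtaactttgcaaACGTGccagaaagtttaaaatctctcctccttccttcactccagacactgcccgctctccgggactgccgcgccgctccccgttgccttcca

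LOX had 4 matches of ACGTG and none of GCGTG, PLOD2 had 2 of ACGTG and 1 of GCGTG, PLOD1 had 2 of GCGTG and P4HA1 1 of ACGTG. Over 35116 RefSeq promoter windows of 300 bases, 48.4% held at least 1 match of either motif, 23.1% at least 2, 10.1% at least 3 and 4.40% at least 4. The first LOX window therefore lies among the windows densest in this motif, and 1 match as in P4HA1 is common. The windows at the 2 other listed LOX start sites each had 1 match of ACGTG and 1 of GCGTG, a count that 23.1% of windows reach. The hypoxia ZHX2 summit in LOX was 6 bp from the middle of the nearest match, in PLOD1 10 bp, in PLOD2 18 bp and in P4HA1 181 bp. These windows were picked because a ZHX2 peak overlapped them, and more matches give more chances of a near one. Distances at other promoters were not computed, so no link between ZHX2 and the motif was tested. The window of P4HA2, which no ZHX2 peak overlapped, had no match of either motif. That window lies inside the annotated span. The outer end of P4HA2, which the hypoxia ZHX2 peak covered, was not searched for motifs. The palindrome CACGTG, which contains ACGTG and occurred in 7.26% of windows, was in none of the 4 sequences, and AGNNGGC, the core of the CTCF motif, had 2 matches each in P4HA1, PLOD1 and PLOD2 and 1 in LOX, beside 64.2% of windows with a match. These matches are letters in a window and no record of binding. P4HA1, PLOD1 and PLOD2 were also rich in G and C, at 70.3, 71.0 and 72.0%, beside a median of 58.7% over all windows and 58.0% for LOX.

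Coverage of the start site itself was compared with the 15813 protein-coding genes that have a listed start site. In hypoxia a ZHX2 peak covered a start site of PLOD1, PLOD2 and LOX, beside 47.2% of genes, and in normoxia of none of the 5, beside 18.3%. WT Flag peaks covered a start site of all 5 genes, beside 56.0%, and PA Flag peaks that of P4HA1, P4HA2, PLOD2 and LOX, beside 49.6%. CTCF covered the start sites of P4HA1, PLOD1, PLOD2 and LOX in normoxia, beside 42.8%, and of the same genes without PLOD1 in hypoxia, beside 41.4%. H3K27ac covered those of P4HA1, P4HA2, PLOD1 and PLOD2 in normoxia, beside 63.1%, and of all 5 in hypoxia, beside 63.7%. The genes that changed sides between the conditions were PLOD1 for CTCF, LOX for H3K27ac, and PLOD1, PLOD2 and LOX for ZHX2. The share of all genes whose start site changed sides was not computed, so these changes do not set the genes apart.

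**Figure D2:**
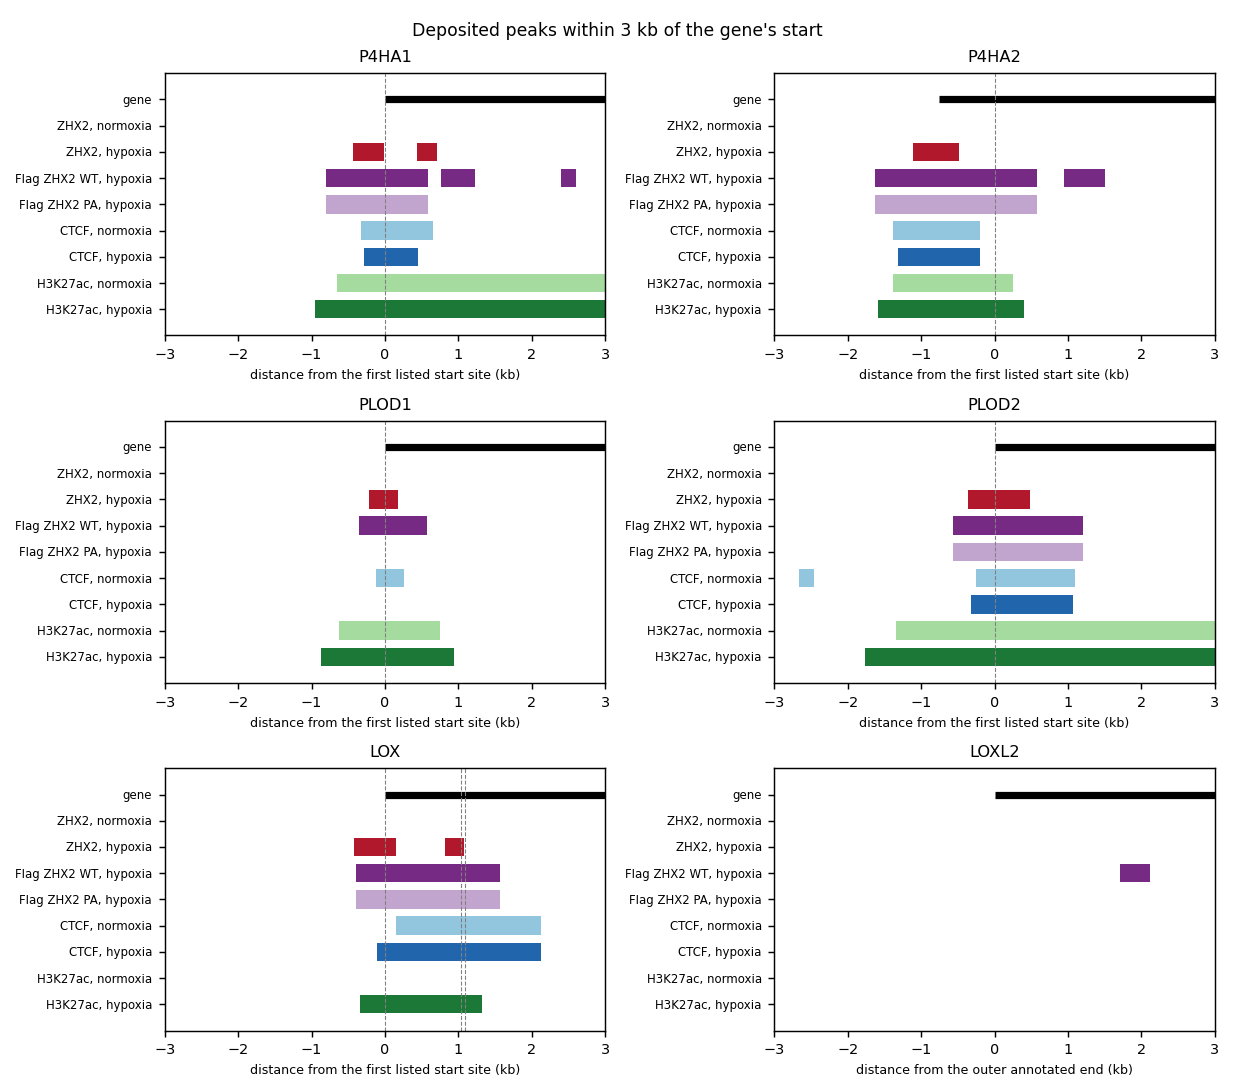
Peaks of the 8 deposited lists (coloured bars, 1 row per list) within 3 kb of the first listed start site of each gene, in kb along the direction of transcription, with the gene span in black and listed start sites as dashed lines. LOXL2 is drawn from its outer annotated end. Hypoxia ZHX2 bars stand near the start of all genes but LOXL2, the normoxia ZHX2 row is empty, and LOX has an H3K27ac bar in hypoxia alone.

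P4HA1 encodes a catalytic alpha subunit of prolyl 4-hydroxylase and spans 73007217 to 73096866 on chromosome 10. Its hypoxia ZHX2 peaks flanked the start site without covering it. The upstream peak (73096872 to 73097301, fold 3.19, −log10 q 10.8) had its summit 265 bp before the start site. The downstream peak (73096161 to 73096422, fold 4.01, −log10 q 7.59) had its summit 586 bp into the gene, and a weaker one lay 75.1 kb into the gene (fold 3.26, −log10 q 4.28) on neither CTCF nor H3K27ac. Between the start-site pair sat a CTCF peak whose summit was 5 bp from the start site in normoxia and 4 bp in hypoxia. Its fold was 122 in normoxia, above 85.9% of that list, and 64.1 in hypoxia, above 71.5% of that list.

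H3K27ac at the P4HA1 start formed a domain of 3982 bp in normoxia (fold 12.6, above 77.9% of its list) and 4266 bp in hypoxia (fold 19.8, above 95.4% of its list). Weaker H3K27ac peaks near 9.7 and 78.6 kb into the gene were in both lists, with folds of 3.43 to 5.83, and the small peak 19.9 kb into the gene (fold 2.96) was in normoxia alone. The start-site domain thus had the highest fold of all H3K27ac peaks at these 6 genes in hypoxia. A CTCF peak 78.1 kb into the gene (fold 8.13) was listed in normoxia alone, and the CTCF peak 35.6 kb into the gene was in both lists, with folds of 46.9 and 37.2.

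P4HA2, the gene of another alpha subunit, spans 132190147 to 132227853 on chromosome 5. Its hypoxia ZHX2 peak (132227576 to 132228209, fold 3.93, −log10 q 11.5) covered the outer annotated end of the gene, with its summit 912 bp before the start site of the RefSeq promoter window. The CTCF summit there was 124 bp from the ZHX2 summit in hypoxia, the closest pair among these genes. CTCF at this site had a fold of 24.5 in normoxia, above 55.0% of its list, and of 10.1 in hypoxia, above 36.5%. Near the far end of the gene, where P4HA2-AS1, an antisense RNA gene, overlaps, the CTCF folds were 28.7 and 19.4. H3K27ac covered the start in both conditions, with folds of 16.7 and 18.2, and the gene body held 2 weaker peaks in both lists. The P4HA2 sites of CTCF and H3K27ac were therefore the same in both lists, and ZHX2 alone differed.

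PLOD1 encodes lysyl hydroxylase 1 and spans 11934717 to 11975537 on chromosome 1. A hypoxia ZHX2 peak covered its start site (11934504 to 11934902, fold 4.86, −log10 q 12.1), with its summit 56 bp upstream and a fold above 85.4% of the list. CTCF showed the reverse pattern at this promoter. A normoxia CTCF peak (11934600 to 11934979, fold 6.48, above 19.3% of its list) covered the start site, and the nearest hypoxia CTCF peak lay 7.94 kb away. H3K27ac covered the start in both conditions, with folds of 15.3 and 13.5.

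Further along PLOD1, a CTCF peak 32.6 kb into the gene was in both lists, with a fold of 50.2 in normoxia, above 67.9% of its list, and of 102 in hypoxia, above 81.6% of its list. The peaks near MFN2, at 11980139 to 11980641 for hypoxia ZHX2 and 11980336 to 11980555 for normoxia ZHX2 (fold 2.81, above 21.9% of its list), carried CTCF and H3K27ac in both conditions. The start of MFN2 lies 4907 bp beyond the end of PLOD1, so these peaks count for PLOD1 only by the 5 kb flank. An H3K27ac domain of 6513 bp upstream of PLOD1 reached into the window in hypoxia (fold 8.37) and overlapped a normoxia peak that ended outside it. Within the gene span alone, 0 of the 6 genes held a normoxia ZHX2 peak. The share of all protein-coding genes under that narrower window was not computed.

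PLOD2, which encodes the lysyl hydroxylase of collagen telopeptides, spans 146069440 to 146161184 on chromosome 3. Its single hypoxia ZHX2 peak (146160699 to 146161545) covered the start site and was the widest of the 11, at 847 bp, with a fold of 4.15 and a −log10 q of 22.4. The peak overlapped CTCF, but the 2 summits were 1001 bp apart, with ZHX2 162 bp before and CTCF 839 bp after the start site. That CTCF peak had a fold of 81.3 in normoxia, above 77.7% of its list, and of 32.6 in hypoxia, above 59.4% of its list. H3K27ac formed the broadest start-site domain of the 6 genes, of 7103 bp in normoxia and 7503 bp in hypoxia, each with a fold of 17.7. A small H3K27ac peak 8.14 kb into the gene (fold 2.51) was in the hypoxia list alone, and small CTCF peaks were listed 2.55 kb upstream of the start in normoxia alone (fold 4.14) and inside LNCSRLR, a long noncoding RNA gene past the other end, in hypoxia alone (fold 4.62).

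LOX, which encodes the founding lysyl oxidase, differed between the conditions in both its ZHX2 and its H3K27ac peaks. It spans 122063195 to 122078259 on chromosome 5 inside the longer span of SRFBP1, so its peaks cannot be told apart from peaks of that gene by position. In hypoxia an H3K27ac peak of 1675 bp (122076931 to 122078605, fold 4.42, −log10 q 17.9, above 50.3% of its list) covered the start site. In normoxia the nearest H3K27ac peak lay 108 kb from the start. Only 1.84% of protein-coding genes held an H3K27ac peak in hypoxia and none in normoxia, and LOX was the 1 gene of the 6 to do so. The hypoxia peak was not in the upper 50% of its list by score, and it passed a −log10 q of at least 5.

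ZHX2 at LOX was also listed in hypoxia alone, in 2 places. The stronger peak (122078107 to 122078676, fold 3.93, −log10 q 12.03) had its summit 120 bp before the first listed start site. The weaker peak (122077177 to 122077442, fold 2.35, −log10 q 2.95, above 7.31% of the list) covered 1 of the 2 other listed start sites, which lie in the first part of the gene, and was the weakest of the 11. It did not pass a −log10 q of at least 5. CTCF was strong at LOX in both conditions, in a peak of 1975 bp in normoxia (fold 249, above 96.2% of its list) and of 2239 bp in hypoxia (fold 155, above 90.7% of its list). The hypoxia CTCF peak reached over the first start site and the normoxia peak ended 151 bp short of it, while the summits stood 1393 and 1389 bp into the gene, at the same place. Both ZHX2 peaks thus overlapped a CTCF peak, and the summit of the stronger was 1509 bp from that of CTCF.

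LOXL2, the gene of a lysyl oxidase with scavenger receptor domains, spans 23296897 to 23404120 on chromosome 8, and none of its peaks of ZHX2, CTCF or H3K27ac covered an annotated end of the gene. Its 2 hypoxia ZHX2 peaks (23343642 to 23343951, fold 3.51, −log10 q 5.54, and 23345319 to 23345622, fold 3.51, −log10 q 7.74) lay inside the gene, where the antisense RNA gene LOXL2-AS1 overlaps. Both fell in an intragenic H3K27ac domain of 4849 bp in normoxia (fold 14.2) and 5237 bp in hypoxia (fold 16.3, above 90.5% of its list). In hypoxia H3K27ac was also listed in 2 places where normoxia had none, with folds of 3.24 and 4.44. CTCF lay elsewhere, at 5 normoxia peaks that all had a hypoxia partner, 3 of them in the gene and 2 in the flank at its neighbour R3HCC1. Neither ZHX2 peak of LOXL2 overlapped CTCF, and both dropped out when the ZHX2 lists were cut to equal length.

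**Figure D3:**
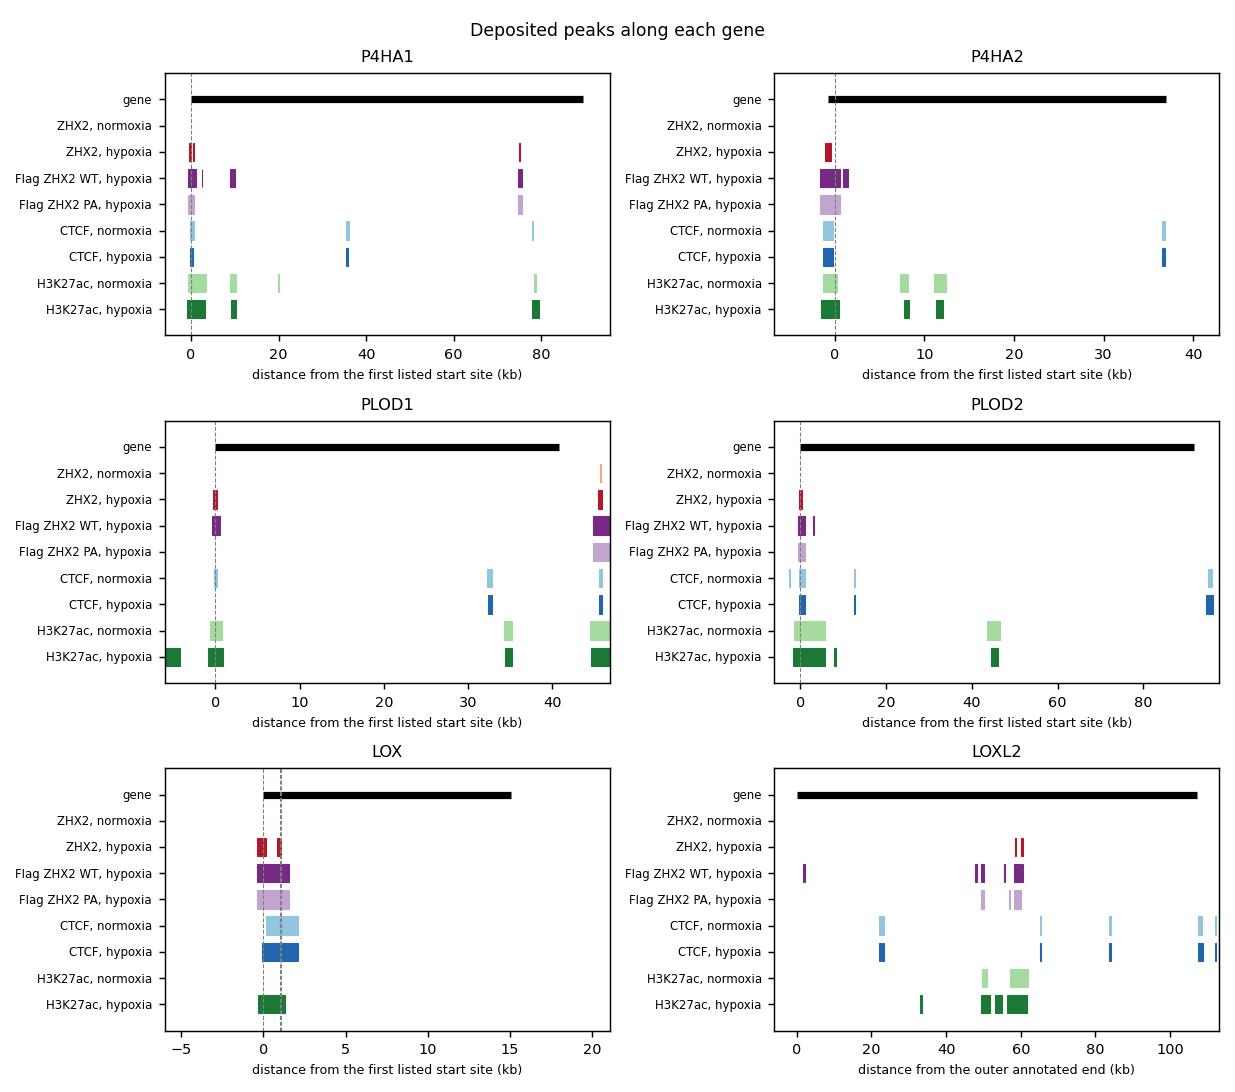
Peaks of the 8 deposited lists (coloured bars, 1 row per list) along each gene, in kb from the first listed start site in the direction of transcription (from the outer annotated end for LOXL2), with the gene span in black. Bars carry a thin outline so that narrow peaks can be seen, and bars at the panel edge may continue. Hypoxia ZHX2 bars stand at or near the start of P4HA1, P4HA2, PLOD1, PLOD2 and LOX, with further bars 75.1 kb into P4HA1 and past the end of PLOD1, and inside the H3K27ac domain of LOXL2.

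Across the 6 genes, CTCF peaks were mostly the same in both conditions. The normoxia list had 18 CTCF peaks at these genes and the hypoxia list 17. Of the normoxia peaks 15 had a hypoxia partner, beside 82.3% of the whole list, and the exceptions were at P4HA1, PLOD1 and PLOD2. Of the hypoxia peaks 16 had a normoxia partner, beside 93.0% of the whole list, and the exception was the small peak beyond PLOD2. All 6 genes held CTCF in both lists, beside 86.0% of protein-coding genes in normoxia and 83.9% in hypoxia. CTCF at these genes thus followed the whole lists, with the PLOD1 promoter as the one start site in the normoxia list alone. How many start sites of all genes are in the normoxia CTCF list alone was not computed.

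H3K27ac peaks numbered 14 in normoxia and 18 in hypoxia. Of the hypoxia peaks 14 had a normoxia partner, beside 80.6% of the whole list, and the other 4 were at LOX (1 peak), PLOD2 (1 peak) and LOXL2 (2 peaks). Of the normoxia peaks 13 had a hypoxia partner, beside 89.1%. At least 1 H3K27ac peak was found at 5 genes in normoxia, beside 75.1% of all genes, and at 6 in hypoxia, beside 76.2%. LOX made the difference.

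Hypoxia ZHX2 peaks at these genes lay on the active mark and often on CTCF. Of the 11 peaks 10 overlapped hypoxia H3K27ac, beside 72.9% of the whole list, and 8 overlapped normoxia H3K27ac, beside 71.4%, the 2 that differ being those of LOX. Of the 11 peaks 7 overlapped hypoxia CTCF, beside 45.6% of the list, with summits 124 to 1509 bp apart and a median of 313 bp. By summits within 250 bp, 2 of the 11 peaks were at CTCF, those of P4HA2 and of PLOD1 at MFN2. At P4HA1, PLOD2 and LOX the ZHX2 and CTCF peaks thus overlapped with their summits 269 bp or more apart. Summit distances over the whole ZHX2 list were not computed, so this spacing is not shown to be particular to these genes.

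The Flag lists show where tagged ZHX2 was found in hypoxia, in its WT and its PA form. WT Flag peaks were listed at all 6 genes, 18 peaks in all, beside 69.8% of protein-coding genes, and PA Flag peaks at all 6, 9 peaks in all, beside 60.0%. All 11 endogenous hypoxia ZHX2 peaks overlapped a WT Flag peak, beside 54.2% of the whole ZHX2 list, and 9 overlapped a PA Flag peak, beside 44.2%. The 2 outside the PA list were the PLOD1 start-site peak and 1 of the LOXL2 peaks. Holding a peak in every hypoxia list, of ZHX2, CTCF, H3K27ac and both Flag forms, was true of all 6 genes and of 50.9% of all protein-coding genes.

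The PLOD1 start site was the one listed start site among these genes with a WT Flag peak (11934363 to 11935297) and no PA Flag peak, the nearest PA peak being 8.46 kb away. At LOX a single Flag interval of 1972 bp (122076688 to 122078659) stood in both lists and spanned both ZHX2 peaks. P4HA1 had 5 WT and 2 PA peaks, and LOXL2 6 and 3. In all, 10 of the 18 WT peaks had no PA partner, beside 51.5% of the whole WT list. With the WT list cut to the 16019 widest peaks, the length of the PA list, 2 of 10 WT peaks at these genes had no PA partner, beside 19.1% of the shortened list. The WT peaks without a partner were narrow, with a median of 436.5 bp against 1856 bp for the 8 with one, and the same held over the whole list, at 436 and 1575 bp. Of these 10, 2 overlapped endogenous hypoxia ZHX2, 6 overlapped hypoxia H3K27ac and 0 overlapped hypoxia CTCF, against 7, 7 and 5 of the 8 with a partner. Over the whole WT list the shares were 21.8, 59.4 and 24.6% of peaks without a partner, and 69.5, 86.1 and 61.9% of peaks with one, so the classes differed in the same direction over the whole list. The Flag lists hold positions alone, and 94.7% of PA peaks, including 8 of the 9 at these genes, have exactly the start and end of a WT peak. The 2 lists are therefore not separate calls of peak borders, and sharing between them is not an independent comparison.

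**Figure D4:**
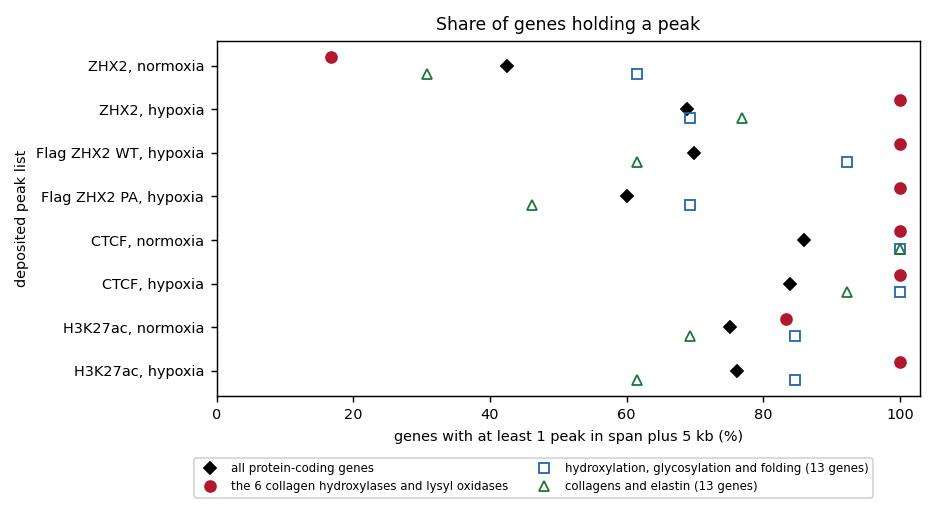
Share of genes with at least 1 peak (horizontal axis, %) in each deposited list (vertical axis), for all protein-coding genes (black diamonds), the 6 collagen hydroxylases and lysyl oxidases (red circles), 13 other genes of collagen hydroxylation, glycosylation and folding (blue squares) and 13 collagen and elastin genes (green triangles). The 6 genes stand left of all genes in the normoxia ZHX2 list, with 1 of 6 against 42.5%, and right of them in the other lists.

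Other enzymes of the same pathway were examined as a list of textbook genes. Of 13 genes of collagen hydroxylation, glycosylation and folding, 9 held a hypoxia ZHX2 peak and 8 a normoxia ZHX2 peak, with 7 in both lists, beside 68.9% and 42.5% of all protein-coding genes. PLOD3, the lysyl hydroxylase that also glycosylates collagen, held one in the hypoxia list alone (best fold 5.55), as did COLGALT2, a collagen galactosyltransferase (4.13, with no Flag or H3K27ac peak in any list), while COLGALT1, its paralog, held one in the normoxia list alone (3.76). P4HB, which encodes the beta subunit that pairs with the P4HA proteins, held ZHX2 peaks in both lists, with best folds of 3.91 in normoxia and 3.22 in hypoxia. P3H4 and FKBP10 are neighbours and had the same best ZHX2 fold, 2.26 in normoxia and 5.73 in hypoxia, so they are not separate cases. The pattern of P4HA1, P4HA2 and PLOD2, ZHX2 in hypoxia alone, was thus seen at 2 of these 13 genes, beside 28.7% of all protein-coding genes.

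Among the other lysyl oxidase genes, LOXL1 and LOXL3 held ZHX2 peaks in both conditions, with best folds of 4.46 and 6.67 in normoxia and 2.70 and 8.94 in hypoxia. LOXL4 held no peak of ZHX2, Flag or H3K27ac in any list, and 2 CTCF peaks in each condition. LOX, LOXL2 and LOXL4 thus had no ZHX2 peak in normoxia, unlike LOXL1 and LOXL3. Among all protein-coding genes 42.5% held a normoxia ZHX2 peak, so lacking one is common.

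Genes with the most similar pattern were sought among protein-coding genes with the same presence or absence in all 8 lists, by the distance between within-list percentiles of the best fold over the 6 ZHX2, CTCF and H3K27ac lists. The pattern of P4HA1, P4HA2, PLOD2 and LOXL2 was shared by 3670 other genes, and that of PLOD1, a peak in every list, by 6244. The pattern of LOX was shared by 17. The nearest genes were PTP4A2 and FAM210A for P4HA1, PDCL3 and ZNF514 for P4HA2, MYSM1 and NT5DC1 for PLOD1, AAK1 and RRM2 for PLOD2, PDLIM5 and SEMA3C for LOXL2, and NTRK2 and ARID5A for LOX. The distances were 2.99 percentile points for AAK1 and 21.8 for ARID5A, the closest and the farthest of these.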

How the data were processed

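The submitters' processing notes name cutadapt, Bowtie2 and MACS2 and the build GRCh38 (hg38), without versions. Each immunoprecipitated group has 1 list of peaks from the authors, and how samples and inputs were combined for it is not stated. ZHX2 and CTCF lists hold a summit and H3K27ac lists none, and Flag lists hold positions alone. The deposited score, fold enrichment (a ratio over background) and −log10 q of a peak are the authors' values, and they served only to describe, rank or filter peaks inside 1 list. The smallest −log10 q of a listed peak was 1.30 for ZHX2 in both conditions. For CTCF it was 5.00 in normoxia and 5.09 in hypoxia, and for H3K27ac 3.49 and 3.47.

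Gene spans came from a RefSeq table of GRCh38.p14, without entries of unplaced or alternate scaffolds. Counts used Python 3.11.15, NumPy 2.4.6 and pandas 2.3.3 and were tested on simulated data. The genes and pathway lists were chosen with earlier results of these data known. Named were the 6 genes, genes inside their windows, up to 4 pathway genes per list with ZHX2 in 1 condition alone, and up to 2 genes of the same pattern per gene. P4HB, P3H4, FKBP10, LOXL1, LOXL3 and LOXL4, and in the closing section COL6A1, COL18A1, COL1A2, COL3A1 and COL6A3, were named after their values were seen. Alternatives covered the window (no flank, 10 kb), the upper 50% of each list, a −log10 q of at least 5, lists of equal length, and partners by 50% overlap or by summits within 250 bp.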

Additional observations from a re-analysis of the deposited data

How the results depend on the processing

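No paired analysis was possible because each group had 1 peak list and no value per sample, and for the same reason leaving out a replicate was not an option. The Flag lists hold no q, so the −log10 q alternative was not run on them. Of 208 values of the comparisons recomputed, 167 stayed within 1.5 times. Of 180 recomputed counts of peaks per gene and list, 141 did and 39 moved further. With the upper 50% of each list, 23 of the counts per gene and list moved and 25 did not. With no flank, the normoxia ZHX2 list held 0 peaks at 0 genes, 0 ZHX2 peaks had a partner in either direction, and 0 hypoxia CTCF peaks lacked one. With 10 kb flanks, the normoxia ZHX2 list held 2 peaks, the partnered ZHX2 peaks were 2 in each list, and 2 hypoxia CTCF and 2 PA Flag peaks lacked a partner. Shares over all protein-coding genes were not computed for these other flanks, and no shares were computed for the upper 50% of each list.

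With the upper 50% of each list (Flag by width), total peaks were 0 in normoxia ZHX2, 11 and 9 in normoxia and hypoxia CTCF, 8 and 9 in normoxia and hypoxia H3K27ac, and 10 and 5 in WT and PA Flag. Normoxia ZHX2 then lay at 0 of the 6 genes and at 9 of the 34 pathway genes (15 as reported), 0 ZHX2 peaks were shared, CTCF peaks with a partner were 9 in each list, and 0 hypoxia CTCF peaks lacked one. H3K27ac peaks with a partner were 7 in normoxia and 8 in hypoxia, 1 hypoxia H3K27ac peak lacked one, 5 Flag peaks of each list had a partner, 5 WT and 0 PA lacked one, and 4 hypoxia ZHX2 peaks overlapped CTCF.

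With paired lists of equal length, 5 of 6 hypoxia ZHX2 peaks and 2 of 10 WT Flag peaks lacked a partner. The shares of the shortened ZHX2 and WT Flag lists were 54.4% and 19.1%. Of the hypoxia CTCF peaks 15 then had a partner and 2 did not. With summits or midpoints within 250 bp, 2 hypoxia CTCF peaks, 4 normoxia and 8 hypoxia H3K27ac peaks lacked a partner. By the same measure 2 hypoxia ZHX2 peaks were at CTCF and 1 at H3K27ac. No whole-list share was computed for CTCF at equal length or for the counts within 250 bp. At a −log10 q of at least 5, 0 normoxia H3K27ac peaks lacked a partner. Unknown read depth limits every absence of a peak to not listed.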

Other observations

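Collagen and elastin genes, the substrates of these enzymes, were examined in the same way. Of 13 collagen and elastin genes 10 held a hypoxia ZHX2 peak and 4 a normoxia ZHX2 peak, all 4 of them in both lists, beside 68.9% and 42.5% of all protein-coding genes. In the hypoxia list alone were COL5A2 (best fold 4.62), ELN, the gene of elastin (4.57), COL1A1, the gene of a chain of the main fibrillar collagen (4.29), COL4A1, a basement membrane collagen gene (4.26), and 2 others. Those 6 of 13 genes stand beside 28.7% of all protein-coding genes. COL18A1, a basement membrane collagen gene, held 9 hypoxia and 3 normoxia ZHX2 peaks, with best folds of 10.9 and 10.6. COL1A2, COL3A1 and COL6A3 held no peak of ZHX2, Flag or H3K27ac in any list. COL6A1 held 2 CTCF peaks in normoxia (best fold 4.36) and 0 in hypoxia. It was named after its values were seen, and the share of all genes with CTCF in normoxia alone was not computed. Whether these differences exceed those between replicates was not tested.

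Of 5 genes of procollagen processing 4 held a hypoxia ZHX2 peak and 1 a normoxia ZHX2 peak, beside 68.9% and 42.5% of all protein-coding genes, and these counts are too small to set the group apart. In the hypoxia list alone were PCOLCE, a procollagen proteinase enhancer gene (best fold 5.68), ADAMTS2 (3.47) and ADAMTS3 (3.12), both genes of procollagen N-proteinases. Those 3 of 5 genes stand beside 28.7% of all protein-coding genes. ADAMTS2 held no H3K27ac and no Flag peak in any list, and it held 16 CTCF peaks in normoxia and 10 in hypoxia. The whole CTCF lists hold 88248 peaks in normoxia and 77334 in hypoxia.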
